A study of Arabidopsis thaliana with 97 samples.

Results

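The 10 genes described here are the Arabidopsis thaliana genes for the central steps of flavonoid synthesis and for 3 of its activators. They were taken by locus and read on the sense strand: CHS (AT5G13930), CHI (AT3G55120), F3H (AT3G51240), TT7 (AT5G07990), FLS1 (AT5G08640), DFR (AT5G42800), LDOX (AT4G22880), MYB12 (AT2G47460), MYB111 (AT5G49330) and PAP1 (AT1G56650). Of the 27878 sense loci with a count in at least 1 library, 8 were among these 10, since LDOX and MYB111 had no sense tag in any library.

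Transcripts were counted with EXPRSS Tag-seq, a strand-specific method that sequences a tag near the 3′ end of polyadenylated RNA, in leaf discs of 5-week-old plants that had been kept in water for 20 h. Discs were placed in 100 nM flg22, an immunity-eliciting peptide of bacterial flagellin, for 8, 15, 30, 45, 60, 120 or 180 min, or in water for 8 min. The genotypes were the mutants ein2-5 (impaired in ethylene signalling), jar1-1 (impaired in jasmonate signalling) and npr1-1 (impaired in salicylic acid signalling), and the wild type Col-0. Each of the 32 groups of genotype and condition had 3 replicates, which gave 96 libraries. The study calls these replicates biological, but no label says whether their discs came from separate plants. The p-values therefore measure the spread between these samples, part of which may be technical. Water libraries existed at 8 min only, so the 7 flg22 times of a genotype were all compared with the same 3 water libraries. After 8 min, flg22 and the time spent in the dish cannot be told apart. The 8 libraries with the same genotype and replicate number were taken as 1 lane, which the sample titles do not name. The mutants jar1-1 and ein2-5 were sequenced on runs separate from Col-0 and npr1-1, so run and genotype cannot be told apart in these 2 comparisons with Col-0.

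Flavonoid synthesis branches from general phenylpropanoid metabolism. In that upstream route PAL, C4H and 4CL turn phenylalanine into an activated coumarate. CHS, chalcone synthase, takes this coumarate into the flavonoid pathway, and CHI, chalcone isomerase, closes the ring to a flavanone. F3H and TT7 hydroxylate the product, FLS1 makes flavonols, and DFR and LDOX lead to anthocyanins. In Arabidopsis, MYB12 and MYB111 switch on the early genes and flavonol synthesis, while PAP1 and its close relative PAP2 act on the anthocyanin branch with bHLH partners and TTG1. In leaves these compounds are known as sunscreens and stress pigments, much of them in the epidermis.

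Libraries held 388494 to 2415097 tags, with a median of 1376558.5, and 128936909 tags in all. The mesophyll markers RBCS1A, RCA, CAB3 and LHCB2.2 summed to 2450 to 19978 tags per 1000000 tags in single libraries, as leaf material should give. Of the 4 epidermal markers, FDH had 2865 tags over all libraries, CER6 2469 and ATML1 596, while PDF1 was at 3 tags or fewer. The flg22-responsive genes FRK1, NHL10 and WRKY22 were called higher at 180 min of flg22 than in water in all 4 genotypes. Of the mutated genes, EIN2 was lower in ein2-5 than in Col-0 in water (log2 change -1.90 ± 0.43 SE, adjusted p = 0.000798 in edgeR), whereas NPR1 in npr1-1 (0.05 ± 0.25) and JAR1 in jar1-1 (-0.02 ± 0.28) were not called (adjusted p = 1.0 for both), and a 3′ tag need not see a lesion elsewhere in the gene.

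The 10 genes together held 820 of all tags, which is 6.36 in every 1000000, and CHS and CHI accounted for 81.7% of them. A single library had between 0 and 28 tags for all 10 genes, with a median of 8. Each transcript gives 1 tag, so levels were compared between genes without a correction for length, and values are tags per 1000000 tags (TPM) after TMM scaling of the library totals. Intervals are exact 95% Poisson intervals and cover counting error only, because the tags carry no molecular identifiers.

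CHI was the most abundant member, at 3.63 TPM over all libraries (95% interval 3.31 to 3.98, 471 tags). CHS followed at 1.54 (1.33 to 1.76, 199 tags) and TT7 at 0.664 (0.531 to 0.819, 86 tags). The intervals of these 3 genes did not overlap. FLS1 had 24 tags, PAP1 18, F3H 11 and DFR 10. These levels ran from 0.185 TPM for FLS1 to 0.0772 for DFR, and the intervals of neighbours in this order overlapped. MYB12 had 1 tag. For LDOX and MYB111, 0 tags allow a level of up to 0.0231 TPM, taking 3 tags as the limit. For 7 genes (F3H, FLS1, DFR, LDOX, MYB12, MYB111 and PAP1) 219 of the 224 sums over the 3 libraries of a group were at or under 3 tags, so their changes between single groups were not detectable at this depth. Even CHS had fewer tags than 55.6% of the sense loci in the files, and CHI fewer than 45.9%.

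The genes around them spanned a far wider range. Upstream, C4H reached 1572 TPM, PAL1 785 and 4CL1 405, whereas 4CL3, the 4CL isoform linked to flavonoids, was at 0.324. CHIL, a helper protein of CHS, was at 0.231. Among the later enzymes, the glycosyltransferases UGT78D2 and UGT78D1 were at 5.14 and 1.66, and OMT1, a methyltransferase shared with lignin synthesis, was at 1502. Of the anthocyanin regulators PAP2 was at 7.79, above its relative PAP1 at 0.139, and the bHLH gene TT8 had 12 tags in all. MYBL2, a repressor of the MYB and bHLH complex, and KFB-CHS, an F-box protein that sends CHS protein to degradation, were at 80.0 and 170.

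**Figure D1:**
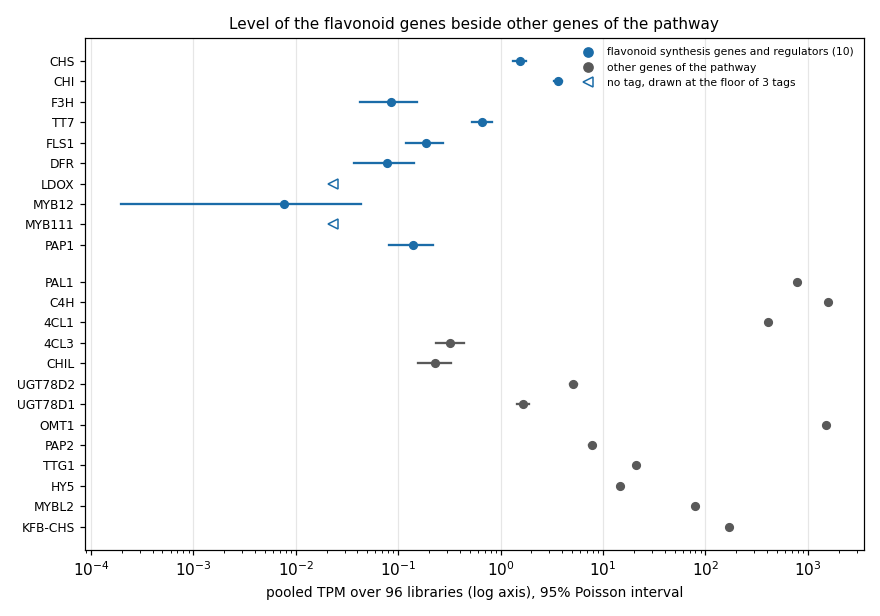
TPM (log axis) pooled over the 96 libraries for the 10 flavonoid genes (blue) and other genes of the pathway (grey), with 95% Poisson intervals; open triangles mark genes without a tag, drawn at the limit of 3 tags. The flavonoid genes lie at or below the 3.63 TPM of CHI, while PAL1, C4H, 4CL1 and OMT1 lie above 400.

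The first comparison asked which of these genes flg22 changed in each genotype. CHS and CHI passed the filter on low counts and were tested, and the other 8 did not. CHS passed it only through 4 libraries, all of jar1-1 in flg22. CHI passed through 12 libraries, most of them late in flg22. There were 2 each in jar1-1 at 120 min and in jar1-1, npr1-1 and Col-0 at 180 min. The others were 1 each in ein2-5 at 180 min, npr1-1 at 60 min, and ein2-5 and npr1-1 in water. The late tests of CHI thus drew on groups that helped it past the filter. The threshold for a call was an adjusted p under 0.01 (edgeR quasi-likelihood test, two-sided, Benjamini-Hochberg over all 16816 features). Over the 7 times, 1 of 14 tests of CHS and CHI was called in jar1-1, and none of 14 in ein2-5, npr1-1 or Col-0. At an unadjusted p under 0.05 there were 1 in ein2-5, 1 in jar1-1, 3 in npr1-1 and 3 in Col-0, and DESeq2 called none in any genotype.

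Against this, the share of all features called, in order of time and beginning with 8 min, was 0.0416%, 5.16%, 11.0%, 18.0%, 23.0%, 21.5% and 18.0% in ein2-5. It was 0.928%, 14.6%, 20.2%, 29.8%, 38.5%, 38.4% and 38.2% in jar1-1. It was 1.26%, 13.6%, 19.6%, 28.2%, 36.9%, 37.0% and 36.7% in npr1-1, and 1.31%, 13.1%, 18.0%, 28.3%, 35.9%, 35.4% and 33.1% in Col-0.

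CHS tags were scarce late in the flg22 series in npr1-1 and Col-0. In npr1-1 the 3 libraries had 0, 0 and 0 tags at 180 min of flg22 and again at 120 min, against 5, 3 and 10 tags in water, or 2.23, 1.99 and 3.87 TPM. In Col-0 there were likewise 0 tags in each of the 3 libraries at 120 and at 180 min, against 5, 6 and 6 in water, or 2.51, 3.44 and 4.05 TPM. No flg22 library of these times reached any water library of its genotype. With 3 tags over the group as the limit, CHS was at least 3.26-fold lower at 120 min and at least 3.50-fold lower at 180 min in npr1-1. In Col-0 it was at least 2.78-fold and 3.09-fold lower, and these folds leave out the counting error of the water tags. These differences missed the threshold, with adjusted p = 0.0239 and 0.0204 in npr1-1 and 0.0317 and 0.0273 in Col-0 (edgeR). In npr1-1 the calls were made when no low-count filter was used (adjusted p = 0.00914 and 0.00693, with 11.6% and 11.7% of all features called at 120 and 180 min), whereas in Col-0 at 180 min the adjusted p ran from 0.0109 to 0.131 over the alternatives.

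Earlier in the series single CHS tags were still found in both genotypes. In Col-0 the 3 libraries held 2, 2 and 0 tags at 8 min, 5, 2 and 0 at 15 min, 2, 1 and 0 at 30 min, 1, 0 and 0 at 45 min and 0, 1 and 0 at 60 min. In npr1-1 they held 3, 0 and 1 tags at 8 min, 1, 2 and 1 at 15 min, 1, 2 and 0 at 30 min, 3, 0 and 0 at 45 min and 5, 0 and 0 at 60 min. All 7 fitted changes from water were negative in each of these genotypes. Since those 7 comparisons share their water libraries, they are not 7 separate observations.

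The marker sums of several cell types were also lower in flg22 than in water. For the epidermis, the summed level of ATML1, PDF1, FDH and CER6 had a median of 26.1 TPM over the 21 Col-0 libraries in flg22 (13.7 to 70.1), against 54.5 to 68.2 in the 3 water libraries. In npr1-1 the median was 31.4 in flg22 (11.1 to 70.7) and 82.0 in water (49.2 to 126.5), in jar1-1 32.8 (12.6 to 70.3) and 70.1 (40.9 to 81.3), and in ein2-5 61.5 (31.1 to 104.2) and 80.7 (72.7 to 88.4). The 4 markers did not move alike. At 180 min CER6 was called lower in every genotype (log2 change -1.76 in ein2-5, -4.47 in jar1-1, -4.42 in npr1-1 and -3.29 in Col-0). ATML1 was called in none, but its log2 changes were negative in all, at -0.60, -2.02, -0.99 and -2.15 in the same order. In jar1-1 and Col-0 its adjusted p was 0.0150 and 0.0232 (edgeR). FDH, the marker with the most tags, was not called either, with log2 changes of 0.71, -0.25, -0.06 and -0.05 in that order. PDF1 was near 0 throughout.

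The lower sums were not particular to the epidermis. The summed guard cell markers FAMA, KAT1 and MYB60 had a median of 8.71 TPM in flg22 against 17.0 in water in npr1-1, and 7.78 against 18.4 in Col-0. Like the medians below, these pool all flg22 times. At 120 min FAMA was called lower in npr1-1 (log2 change -1.96) and Col-0 (-1.98), and KAT1 was not (-1.45 and -2.02). At 180 min neither gene was called. Their log2 changes were then -1.31 and -0.68 for FAMA and -0.16 and -0.20 for KAT1, in the same order. The summed vascular markers SUC2, SWEET11 and ATHB8 had medians of 169.7 against 336 TPM in npr1-1 and 203 against 332 in Col-0, and the summed mesophyll markers 8295 against 9771 and 8747 against 11046. Most mesophyll marker tags were RBCS1A (1086663 tags, with RCA next at 149105). At 180 min RBCS1A and RCA were called lower in npr1-1 (log2 changes -1.47 and -2.74) and Col-0 (-1.59 and -2.72). CAB3 (-3.33 in npr1-1, -2.82 in Col-0) and LHCB2.2 (-1.71 and -1.06) were not called then. Earlier, at 15 min, LHCB2.2 was at 2.75 and 2.40 and RBCS1A at -0.15 and -0.27, with none called. The vascular markers did not move alike either. At 120 min SWEET11 was called lower in npr1-1 (log2 change -2.55) and Col-0 (-2.38). SUC2 was called at no time in these genotypes, and its log2 change at 180 min was 0.10 in npr1-1 and 0.61 in Col-0. In whole discs, fewer cells of a type and less RNA per cell cannot be told apart, and the part of these markers in the CHS levels was not tested.

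In jar1-1 CHS tags were still found at 120 and 180 min of flg22. At 120 min of flg22 its 3 libraries had 14.7, 0 and 3.03 TPM, against 2.42, 2.45 and 3.66 in water, and at 180 min they had 3.14, 2.12 and 0.681. The groups overlapped at both times, and the fitted changes were 0.92 ± 0.88 and -0.63 ± 1.03 on the log2 scale. Replicate 1 stood apart. Its flg22 libraries had 4, 11, 10, 9, 10, 13 and 3 CHS tags from 8 to 180 min, those of replicate 2 had 0, 4, 9, 0, 0, 0 and 2, and those of replicate 3 had 5, 9, 2, 0, 1, 4 and 1.

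In ein2-5 CHS was near 0 throughout. The water libraries had 0, 0 and 1 tags, and the highest flg22 library, at 120 min, had 3. Over all flg22 libraries CHS had 11 tags in ein2-5, or 0.405 TPM (0.202 to 0.724), against 1 tag in water, or 0.197 (0.00498 to 1.10). A fall of CHS in flg22 could therefore not have been seen in this genotype.

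**Figure D2:**
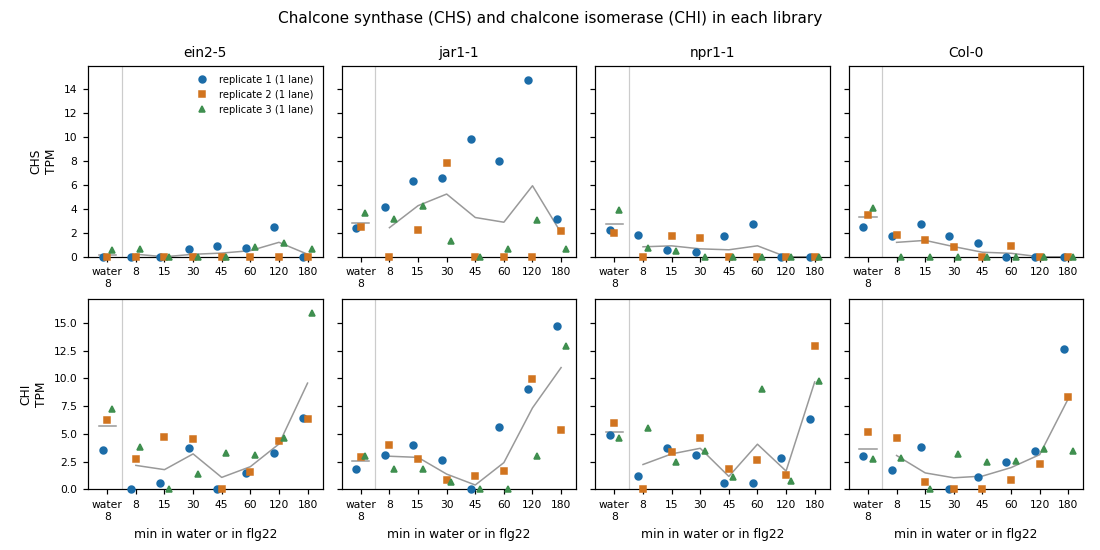
TPM of CHS (top) and CHI (bottom) in each library of ein2-5, jar1-1, npr1-1 and Col-0, in flg22 for 8 to 180 min (right of the vertical line) and in water for 8 min; symbols mark the replicate number, grey lines the mean of 3 replicates. CHS is at 0 in all npr1-1 and Col-0 libraries at 120 and 180 min and reaches 14.7 in replicate 1 of jar1-1, while CHI is low at 45 min and high at 180 min in each genotype.

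CHI had another course, low in the middle of the series and high at its end. At 45 min of flg22 it averaged 1.09 TPM in ein2-5, 0.405 in jar1-1, 1.18 in npr1-1 and 1.21 in Col-0. In water it averaged 5.68 ± 1.89, 2.58 ± 0.67, 5.17 ± 0.70 and 3.62 ± 1.34 in the same genotypes (SD, n = 3 each). All 3 libraries at 45 min were below all 3 water libraries in each genotype. The log2 changes were -2.17, -2.54, -2.28 and -1.65, and none was called (adjusted p = 0.0599, 0.104, 0.0508 and 0.195 in edgeR, in the same order). Without replicate 3, the one ein2-5 library with CHI tags at 45 min, CHI was called lower in ein2-5 at that time (adjusted p = 0.00974 in edgeR), and likewise in Col-0 at 30 min (adjusted p = 0.00969), where replicate 3 held all 4 tags.

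At 180 min of flg22 the mean of CHI was 9.57 ± 5.48 TPM in ein2-5, 11.0 ± 4.98 in jar1-1, 9.68 ± 3.25 in npr1-1 and 8.17 ± 4.60 in Col-0 (SD, n = 3 each). In jar1-1 the 3 libraries had 14.7, 5.31 and 12.9 TPM, against 1.81, 2.94 and 3.0 in water. Every flg22 library exceeded every water library. CHI rose there by 2.03 ± 0.67 (log2, SE; adjusted p = 0.00933 in edgeR), the only call among the members in this comparison, at a time when 20.0% of all features were called higher. Of the 12 libraries that carried CHI past the low-count filter, 2 belonged to this group. The call lay close to the threshold and was lost under RLE scaling, total-tag scaling, without organelle loci, in DESeq2 and without any 1 of the 3 replicates, while the log2 change stayed between 1.69 and 2.27 in these fits. With the lane as a replicate block it was kept (adjusted p = 0.00275).

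In the other genotypes the late level of CHI was higher than in water on average but was not called. The npr1-1 libraries had 6.37, 12.9 and 9.79 TPM at 180 min and 4.90, 5.96 and 4.65 in water. These groups did not overlap, and the log2 change was 0.89 ± 0.64 (adjusted p = 0.254 in edgeR). The Col-0 libraries had 12.7, 8.36 and 3.48 at 180 min and 3.01, 5.16 and 2.70 in water, and the ein2-5 libraries 6.46, 6.37 and 15.9 at 180 min and 3.58, 6.22 and 7.23 in water. These overlapped, with log2 changes of 1.17 ± 0.70 in Col-0 (adjusted p = 0.175) and 0.78 ± 0.63 in ein2-5 (adjusted p = 0.391).

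Late against middle levels were also compared directly, at 180 against 60 min of flg22, which removes the water libraries from the contrast. In ein2-5 CHI had 6.46, 6.37 and 15.9 TPM at 180 min, against 1.49, 1.56 and 3.11 at 60 min, and in jar1-1 14.7, 5.31 and 12.9 against 5.59, 1.67 and 0. In npr1-1 it had 6.37, 12.9 and 9.79 at 180 min, against 0.548, 2.67 and 9.01 at 60 min, and in Col-0 12.7, 8.36 and 3.48 against 2.52, 0.868 and 2.52. The groups did not overlap in ein2-5 and Col-0, and overlapped in jar1-1 and npr1-1.

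The log2 changes of CHI were 2.21 ± 0.76 in ein2-5, 2.22 ± 0.75 in jar1-1, 1.25 ± 0.68 in npr1-1 and 2.02 ± 0.81 in Col-0 (SE), with adjusted p = 0.0243, 0.0184, 0.185 and 0.0586 (edgeR). Of the 8 tests of CHS and CHI none was called, 3 reached an unadjusted p below 0.05, and none was called in DESeq2. Among all features the share called was 14.4% in ein2-5, 17.8% in jar1-1, 15.7% in npr1-1 and 16.1% in Col-0. With the lane as a replicate block 1 of the 8 was called, CHI in jar1-1 (adjusted p = 0.00393 in edgeR). The share of all features called is not given for that fit. CHI in jar1-1 was also called with no low-count filter (adjusted p = 0.00985, with 5.34% of all features called).

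**Figure D3:**
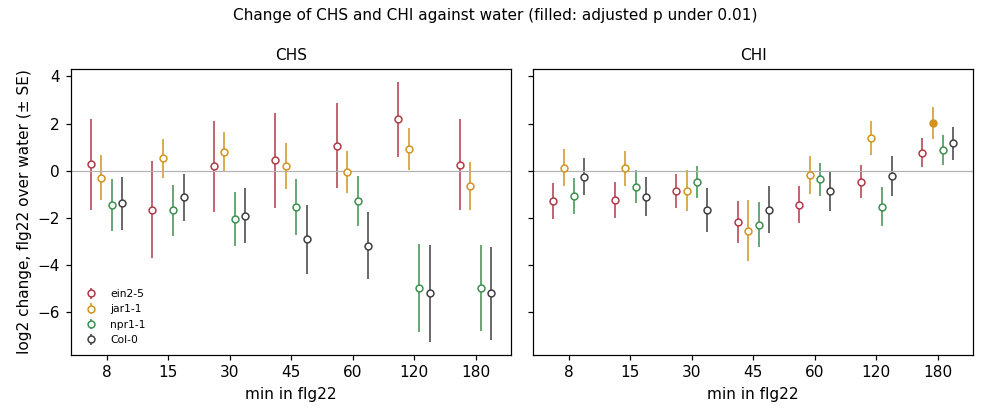
Log2 change in flg22 over water (± SE) for CHS (left) and CHI (right) at 8 to 180 min in ein2-5, jar1-1, npr1-1 and Col-0; the filled symbol is the only call at adjusted p under 0.01, CHI in jar1-1 at 180 min (2.03). The CHS values of npr1-1 and Col-0 at 120 and 180 min, and of ein2-5 at 15 min, come from groups without a tag and are set by the fit's prior count.

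Before flg22, the mutants were compared with Col-0 in water. None of the 2 tests was called in any mutant (edgeR), with 1 of 2 at an unadjusted p under 0.05 in ein2-5 and none in jar1-1 or npr1-1, and DESeq2 called none. The share of all features called was 6.77% in ein2-5, 0.0357% in jar1-1 and 0.0595% in npr1-1. CHS was the gene with the low unadjusted p. It had 0, 0 and 0.557 TPM in ein2-5, against 2.51, 3.44 and 4.05 in Col-0, and the groups did not overlap. The ratio of 1 tag to 17 tags corresponds to a 16.6-fold lower level in ein2-5, with a counting interval of 2.59-fold to 692-fold, and the edgeR log2 change was -3.55 ± 1.33 (adjusted p = 0.0760, between 0.0321 and 0.281 over the alternatives).

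In the other mutants CHS in water was near the Col-0 level of 3.33 ± 0.78 TPM, at 2.84 ± 0.71 in jar1-1 and 2.70 ± 1.03 in npr1-1 (SD, n = 3 each). For CHI in water no mutant differed from Col-0 beyond the spread, with adjusted p = 0.674 in ein2-5 and 1.0 in jar1-1 and npr1-1 (edgeR). CHI was thus not low in the ein2-5 water discs, with a mean of 5.68 TPM against 3.62 in Col-0.

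Under flg22 the mutants were set against Col-0 over the 7 times together, by an F-test of 7 differences. None of the 2 tests was called in ein2-5, jar1-1 or npr1-1 (edgeR), and 1 of 2 had an unadjusted p under 0.05 in jar1-1, none in ein2-5 and npr1-1. DESeq2 was not run for this test. The share of all features called was 16.4% in ein2-5, 1.01% in jar1-1 and 0.583% in npr1-1. The gene with the low p in jar1-1 was CHS, with a mean log2 difference of 3.01 and an adjusted p of 0.0400. CHS had passed the low-count filter only through 4 jar1-1 flg22 libraries, so this p cannot be read as support for a difference.

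Over its 21 flg22 libraries jar1-1 held 97 CHS tags, or 3.61 TPM (2.93 to 4.40), against 16 tags in Col-0, or 0.686 (0.392 to 1.11). The lanes of jar1-1 averaged 7.53, 1.73 and 1.86 TPM over the 7 flg22 times, against 1.05, 0.697 and 0 in Col-0. Every jar1-1 lane lay above every Col-0 lane, and lane 1 of jar1-1 lay far above the others. Taken by lane, the difference of 3.13 TPM had a two-sided exact permutation p of 0.1, the smallest that 3 lanes against 3 can give, and 0.3 after adjustment over the 3 mutants. At 120 and 180 min, where Col-0 had no CHS tag, the jar1-1 groups had 17 and 6 tags. With 3 tags as the limit for Col-0 these levels were 4.53-fold and 1.69-fold higher, leaving out the counting error of the jar1-1 tags. At 120 min replicate 1 of jar1-1 held 13 of the 17 tags and replicate 2 none.

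The call for CHS in jar1-1 depended on the fit. The adjusted p ran from 4.67e-05 with no low-count filter, where 1.41% of all features were called, to 0.621 in limma with the lane as a random block, where the mean log2 difference was 1.56. Without replicate 1, which held 60 of the 97 tags, CHS did not pass the filter and could not be tested. Because CHS passed the filter through jar1-1 flg22 libraries only, its test was in place only where jar1-1 was high.

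In ein2-5 the CHS lane means under flg22 were 0.677, 0 and 0.457 TPM (exact permutation p = 0.6), and in npr1-1 1.04, 0.463 and 0.17 (p = 0.9), against the same Col-0 lanes, or 0.9 each after adjustment. CHI lane means lay within 2.22 to 5.58 in the mutants and 2.40 to 3.62 in Col-0, with exact permutation p = 0.7 in ein2-5, 0.2 in jar1-1 and 0.2 in npr1-1, or 0.7, 0.3 and 0.3 after adjustment. The interaction of mutant and flg22, which asks whether the change from water differed from that of Col-0, was called for neither CHS nor CHI in any mutant. None of these tests had an unadjusted p under 0.05, and DESeq2 was not run. The share of all features called for the interaction was 1.3% in ein2-5 and 0.0% in jar1-1 and npr1-1.

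TT7, the flavonoid 3′-hydroxylase, was the third member with tags in most groups, although it did not pass the filter. Over all libraries of a genotype it had 23 tags in ein2-5, 18 in jar1-1, 27 in npr1-1 and 18 in Col-0, or 0.713, 0.536, 0.767 and 0.631 TPM with overlapping intervals. In npr1-1 it had 8 of these tags at 30 min (4, 3 and 1 by library) and 0 at 180 min, against 1, 0 and 1 in water. In Col-0 it had 2, 2 and 2 tags at 30 min and none at 120 and 180 min, against 1, 2 and 1 in water. In ein2-5 TT7 was still found at 180 min, with 0, 2 and 1 tags, and in jar1-1 with 0, 0 and 1. These counts are within what single tags allow, and no test was made in the filtered set.

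FLS1, flavonol synthase, was unevenly spread over the genotypes. It had 14 tags in 8 libraries of ein2-5, 7 tags in 6 libraries of jar1-1, 3 tags in 1 library of npr1-1 and none in the 24 libraries of Col-0. The lanes of ein2-5 held 8, 1 and 5 of these tags, and those of jar1-1 4, 2 and 1. Most of the ein2-5 tags came from 15 and 120 min, with 1, 1 and 3 tags and 3, 0 and 2 tags. The library with 3 tags at 15 min, replicate 3, was the smallest of all at 388494 tags, so its TPM is high for few tags. With 3 tags over 24 libraries as the limit for Col-0, FLS1 was at least 4.13-fold higher in ein2-5 and at least 1.98-fold higher in jar1-1. These folds leave out the counting error of the mutant tags. Against npr1-1 the ein2-5 level was 5.10-fold higher with a counting interval of 1.42-fold to 27.7-fold. Both mutants were sequenced apart from Col-0, and with no low-count filter no comparison of FLS1 was called in edgeR.

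F3H, which hydroxylates flavanones, had 11 tags in 10 libraries, of which 3 were in ein2-5, 1 in jar1-1, 5 in npr1-1 and 2 in Col-0. DFR, the first enzyme of the anthocyanin branch, had 10 tags in 6 libraries, 7 of them in npr1-1. Those 7 were 4 tags in replicate 2 at 30 min, 1 in replicate 1 at 45 min and 2 in replicate 1 at 60 min of flg22, and none was found in npr1-1 in water. DFR had 1 tag in ein2-5, 0 in jar1-1 and 2 in Col-0. LDOX, the next enzyme of that branch, was not found.

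Among the activators, PAP1 had 18 tags after rounding, 5 in ein2-5, 6 in jar1-1, 6 in npr1-1 and 1 in Col-0. Of the 6 in jar1-1, 4 came from 1 water library, and of the 6 in npr1-1, 4 came from the water libraries (2, 0 and 2). PAP1 tags were shared with other loci in 6 libraries, so its count is uncertain against its close relatives. The single MYB12 tag came from replicate 2 of npr1-1 at 30 min, the library that also held 4 DFR tags and 1 PAP1 tag.

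**Figure D4:**
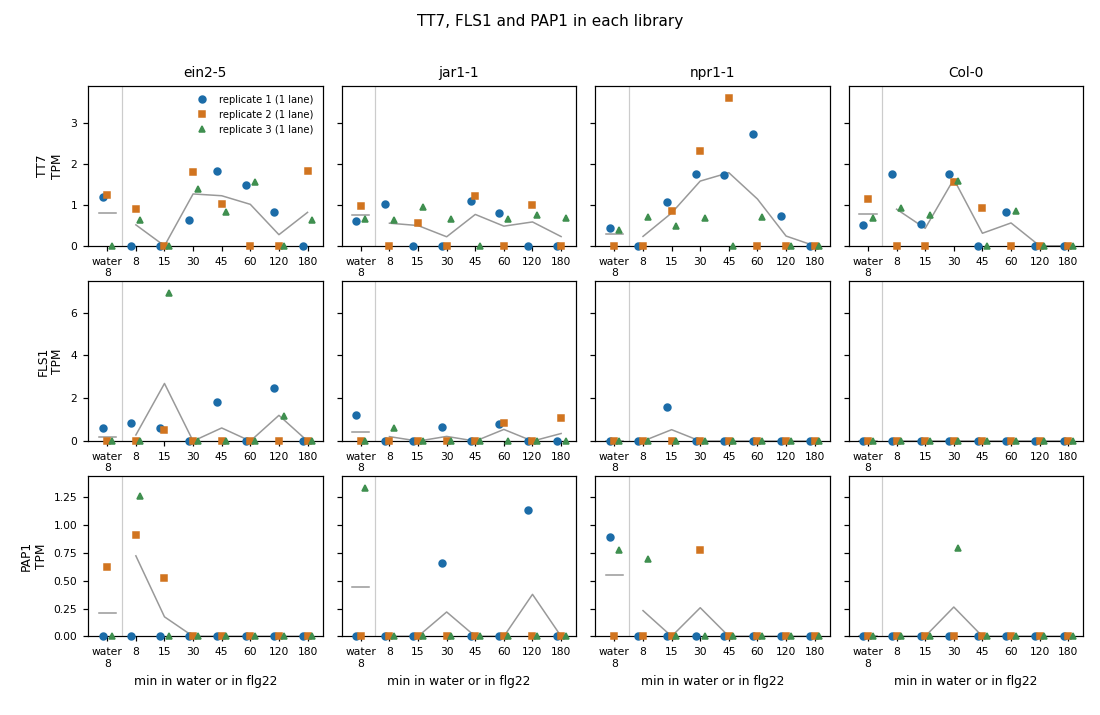
TPM of TT7, FLS1 and PAP1 in each library of ein2-5, jar1-1, npr1-1 and Col-0, in flg22 for 8 to 180 min (right of the vertical line) and in water for 8 min; symbols mark the replicate number, grey lines the mean of 3 replicates. Most points lie at 0, FLS1 is at 0 in all 24 Col-0 libraries, and a single nonzero point is 1 to 5 tags. The FLS1 point of ein2-5 replicate 3 at 15 min is 3 tags in the smallest library.

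The neighbours of these genes in the pathway were described by lists of known genes. Of 8 genes of the general phenylpropanoid route 7 were tested, and at 180 min of flg22 against water 5 rose in ein2-5, 6 in jar1-1, 6 in npr1-1 and 6 in Col-0, with none lower, where 18.0%, 38.2%, 36.7% and 33.1% of all features were called in either direction. The median log2 change of the 7 was 1.63, 3.63, 3.68 and 3.42 in that order, beside 0.07, 0.04, 0.08 and 0.07 over all features. PAL1, the entry enzyme of the route, rose by 2.26 ± 0.44 in ein2-5, 4.94 ± 0.50 in jar1-1, 5.07 ± 0.50 in npr1-1 and 4.17 ± 0.48 in Col-0 (log2, SE), where CHS was not called in any genotype and CHI in jar1-1 only.

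In water discs 5 of these 7 upstream genes were already higher in ein2-5 than in Col-0, with none lower, where 6.77% of all features were called, and the median log2 change was 2.65 beside 0.06 over all features. 4CL2 was higher by 3.70 ± 0.49, PAL1 by 2.95 ± 0.46 and C4H by 2.83 ± 0.38. CHS in the same discs was the 1 tag against 17 tags given above. In jar1-1 and npr1-1 none of the 7 was called against Col-0 in water.

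Of 16 genes that decorate or transport flavonoids 7 were tested. At 180 min of flg22 against water, 2 were higher and 0 lower in ein2-5, 2 and 1 in jar1-1, 2 and 2 in npr1-1, and 2 and 1 in Col-0. Beside the 18.0%, 38.2%, 36.7% and 33.1% of all features called, these counts out of 7 show nothing particular to the list. The 2 that rose in each genotype were OMT1, which also serves lignin synthesis, and RHM1, which makes UDP-rhamnose for cell walls as well as for flavonols (log2 changes of 2.61 ± 0.33 and 2.45 ± 0.32 in Col-0). UGT78D1, which adds rhamnose to flavonols, fell by 3.65 ± 0.88 on the log2 scale in npr1-1 (adjusted p = 0.000389) and by 3.54 ± 1.07 in Col-0 (adjusted p = 0.00494, edgeR). UGT78D1 had only 215 tags over all libraries, so the size of these falls rests on few tags.

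Of 11 further activators 4 were tested. The anthocyanin regulator PAP2 fell by 180 min of flg22 in jar1-1 (-2.67 ± 0.81, adjusted p = 0.00455), npr1-1 (-3.92 ± 0.76, adjusted p = 1.47e-05) and Col-0 (-4.54 ± 0.84, adjusted p = 7.48e-06, edgeR), and no other activator was called at that time, so that 0 of 4 were called in ein2-5 and 1 of 4 in each other genotype, beside the same shares of all features. In Col-0 its libraries had 1.95, 2.09 and 1.16 TPM at 180 min, against 26.6, 59.6 and 42.6 in water. These groups lay far apart. In ein2-5 water discs PAP2 had 1 tag in 3 libraries (0, 0.622 and 0 TPM), against 220 tags in Col-0, which is 214-fold lower with a counting interval of 38.1-fold to 8499-fold (adjusted p = 1.52e-07, edgeR). PAP2 and CHS both had 1 tag in the ein2-5 water libraries, so a fall in flg22 was not detectable there for either gene.

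Of 11 repressors 9 were tested. At 180 min of flg22 against water 1 was higher and 0 lower in ein2-5, 2 and 0 in jar1-1, 2 and 1 in npr1-1, and 2 and 0 in Col-0. Among all features the shares called were again 18.0%, 38.2%, 36.7% and 33.1%, so the list as a whole does not stand out. KFB-CHS, whose product removes CHS protein, was the one that rose in every genotype, by 1.20 ± 0.34, 1.38 ± 0.35, 1.74 ± 0.35 and 1.59 ± 0.35 in the same order. Before that, at 30 min, KFB-CHS fell to 8.26 ± 3.40 TPM in Col-0, against 80.8 ± 9.02 in water (log2 change -3.29 ± 0.43, adjusted p = 1.14e-09, edgeR), and it fell at 30 min in the 3 mutants too. MYBL2 was higher at 15 min in jar1-1, npr1-1 and Col-0 (1.42, 1.63 and 1.56) and lower at 30 min in all 4 genotypes. Both genes were higher at 180 than at 60 min in all 4 genotypes. In water discs KFB-CHS averaged 310 ± 100 TPM in ein2-5, against 80.8 ± 9.02 in Col-0 (log2 difference 1.94 ± 0.36, adjusted p = 3.70e-05, edgeR).

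**Figure D5:**
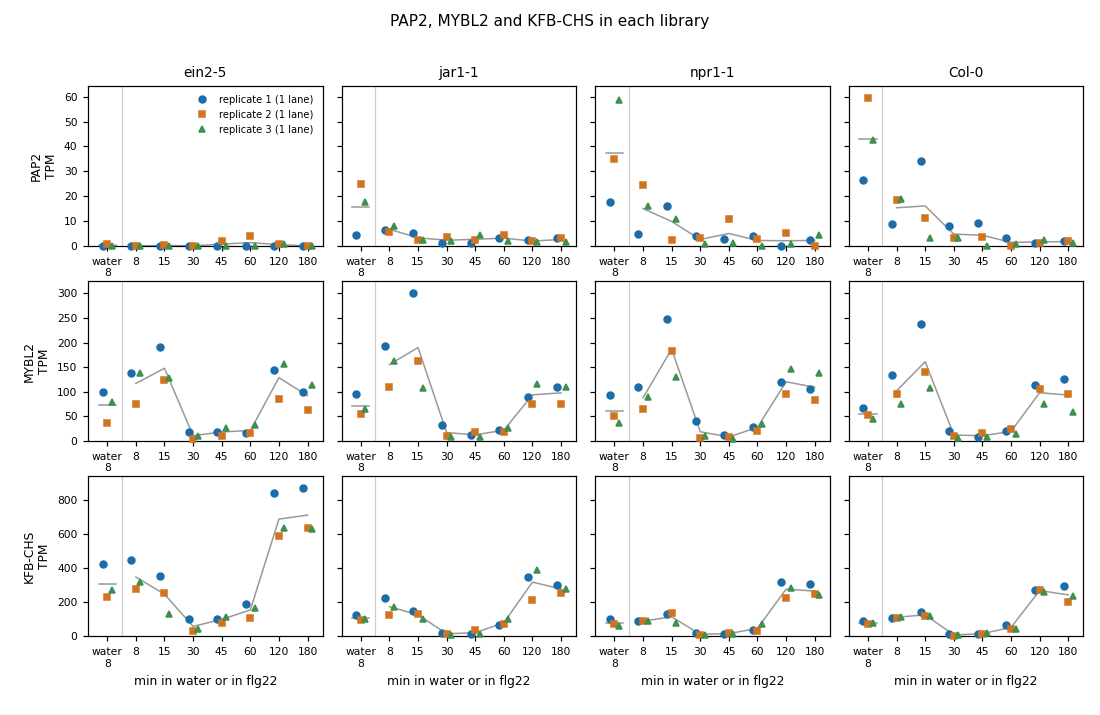
TPM of PAP2 (anthocyanin activator), MYBL2 (repressor) and KFB-CHS (F-box protein acting on CHS) in each library of ein2-5, jar1-1, npr1-1 and Col-0, in flg22 for 8 to 180 min (right of the vertical line) and in water for 8 min; symbols mark the replicate number, grey lines the mean of 3 replicates. PAP2 is near 0 in all ein2-5 libraries and low late in flg22 elsewhere, while MYBL2 and KFB-CHS are low at 30 and 45 min and high at 180 min.

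Likeness of pattern was taken as Pearson's r over the 32 group means on the log2 scale, with 1 TPM added, against 14568 other sense genes past the filter. It is a description with no p, since the groups share lanes and, for these sparse genes, single tags weigh heavily. The genes most like CHS were AT3G01345 (r = 0.77), AT3G60930 (0.73), AT1G15130 (0.72), AT4G10030 (0.66) and HSP93-III (0.64). For FLS1 they were AFH14 (0.65), AT5G34780 (0.63), GCT (0.61), MSRB6 (0.61) and emb1220 (0.61), and for PAP1 ATBCAT-5 (0.65), EMB2729 (0.64), MIR167d (0.64), AT5G63940 (0.63) and ATK2 (0.63), with 14569 genes compared. Within the pathway CHS and CHI had r = -0.05, CHS and PAP2 0.48, CHI and KFB-CHS 0.59, and CHI and MYBL2 0.47.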

How the data were processed

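The values deposited by the authors are expected counts of tags for each locus and strand, made by filtering tags on quality, sorting them by barcode without mismatches and aligning them to TAIR10 with Bowtie (0.12.8 in the submitters' processing notes, which also name R 2.15.3), leftover tags to transcripts. A tag that matched up to 10 genes was split equally among them. Antisense tags were counted apart unless within 500 bp of a 3′ end. The values had not been normalised, and loci absent from a library's file were set to 0. Between 12.0% and 18.4% of values in a library were not whole, and rounding them changed totals by -0.0506% to -0.0122%. Gene names came from a TAIR10.1 table (27432 of 27878 sense loci matched), and no positions or sequences are printed because its build differs from that of the files.

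Counts were tested in edgeR 4.0.16 (R 4.3.3) with 1 quasi-likelihood model of 32 groups over 96 libraries of 388494 to 2415097 tags. Features passed filterByExpr (min.count 10, min.total.count 15, large.n 10, min.prop 0.7, a cutoff of 7.26 tags per 1000000 tags, TPM), which kept 14569 sense and 2247 antisense features. TMM factors were 0.723 to 1.43, the common dispersion 0.0864 and the prior degrees of freedom 9.65. The study used baySeq, which was not run here. The SE is the size of a log2 change over the square root of F. The script was tested on simulated counts. Alternatives were RLE and total-tag scaling, libraries without organelle loci, DESeq2 1.42.0, no low-count filter, replicate blocks, each replicate left out and limma 3.58.1 with the lane as a random block. For a group without tags the limit was 3 tags over its libraries, and intervals are exact at 95%. Folds against this limit take the level of the other group as counted, without its counting error. The members, lists and tests were chosen with earlier results of these data known. Named are the 10 members, the mutated genes, at most 4 called genes of each list by size of change in a comparison described, and the 5 genes most like CHS, PAP1 and FLS1. The other genes whose pooled levels are given were picked after values had been seen.

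The replicate number within a genotype was taken to mark a shared lane, although the sample titles give the replicate number and name no lane. Deviations from the group means correlated within a lane with a mean r of 0.602 in ein2-5 (above 0.1 in 84 of 84 pairs), 0.336 in jar1-1 (79 of 84), 0.403 in npr1-1 (83 of 84) and 0.341 in Col-0 (83 of 84). Across genotypes, libraries with the same number had a mean of 0.134 (above 0.1 in 682 of 1152 pairs) and were not taken as paired.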

Additional observations from a re-analysis of the deposited data

How the results depend on the processing

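Counts of called members over 7 times moved in all genotypes. In jar1-1 the count of 1 (CHI at 180 min) was 0 with RLE scaling, total-tag scaling, without organelle loci, in DESeq2 and in all 3 fits without 1 replicate (0 to 0). In npr1-1 the count of 0 was 2 with no low-count filter (CHS at 120 and 180 min). Leaving out 1 replicate gave 0 to 1 in ein2-5 (CHI at 45 min without replicate 3, adjusted p = 0.00974) and 0 to 1 in Col-0 (CHI at 30 min without replicate 3, adjusted p = 0.00969, edgeR). For 180 against 60 min the count of 0 was 1 with no low-count filter and 1 with the replicate block within genotype (CHI in jar1-1). For jar1-1 against Col-0 under flg22 it was 1 with no low-count filter and 1 with the replicate block across genotypes (CHS, adjusted p = 0.00805). The replicate block changed no other call, and no change reversed. For the fits with a block or without 1 replicate the share of all features called is not given, so their counts have no background beside them. The cause was not tested, beyond what the settings themselves bring, namely fewer samples, more features tested, or CHS dropping out of the filter without organelle loci and without replicate 1. The other 109 counts stayed as they were, limma with the lane as a random block included, and of the values of single genes 635 kept their side of the threshold, 7 lost a call and 8 gained one. DESeq2 was not run for the F-tests of 7 terms. Most members had at most 3 tags in a group, which limits what these counts can show.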

Other observations

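Among the genes beside the 10, AT3AT2, an acyltransferase that decorates anthocyanins, was found mostly in the middle of the flg22 series. In Col-0 it had 18, 16 and 17 tags over 3 libraries at 30, 45 and 60 min, against 0 in water. With 3 tags as the limit for water and the counting error in flg22 left out, AT3AT2 was at least 8.49-, 10.05- and 8.37-fold higher (adjusted p = 0.000534, 0.000218 and 0.000333 in edgeR). AT3AT2 had only 243 tags over all libraries, and the Col-0 water libraries, without a tag, did not bring it past the low-count filter. These p-values therefore cannot be read as separate support for a rise. AT3AT2 was called higher at these 3 times in jar1-1 and npr1-1 as well, with the same limit. At 120 and 180 min it was down to 2 and 3 tags in Col-0. In ein2-5 it had 10, 12 and 5 tags at 30, 45 and 60 min, against 1 in water, and was not called.

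HY5, a light-signalling factor that activates flavonoid genes, had a trough that overlapped this window but ended later in jar1-1, npr1-1 and Col-0. In these 3 genotypes HY5 was not called at 30 min. At 120 min it was still called lower in them, with log2 changes of -1.95, -2.06 and -2.06. It averaged 2.58 ± 3.15 TPM in ein2-5 at 60 min of flg22, against 18.2 ± 9.68 in water, 4.89 ± 3.89 against 28.3 ± 6.84 in jar1-1, 2.56 ± 1.10 against 21.8 ± 7.30 in npr1-1 and 2.26 ± 1.74 against 30.0 ± 13.3 in Col-0 (SD, n = 3 each). HY5 was called lower at 60 min in all 4 genotypes and higher at 180 than at 60 min in all 4, by log2 changes of 2.62, 3.20, 3.89 and 4.12 in the same order.

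Antisense tags were few at the 10 loci. TT7 had 16 antisense tags, 13 in flg22 and 3 in water libraries, and CHI had 10, with 4 in flg22 and 6 in water libraries. CHS, F3H, DFR and LDOX had none.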
